A study of Equus caballus with 6 samples.

Results

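The genes described here are the eukaryotic translation initiation factors (symbols starting with EIF) and elongation factors (symbols starting with EEF), with the kinases, binding proteins and methyltransferases that carry these prefixes. They were taken from the platform annotation as the probe sets whose only gene symbol starts with EIF or EEF, and the probe set with the highest mean log2 signal over the 6 arrays stood for its gene. This gave 51 genes of 9155 with a symbol of their own, read by 69 of 24016 probe sets. Only probe sets that exceeded their own array's median on at least 3 of the 6 arrays entered the test, which kept 44 of the 51 genes, among 6151 tested genes in all. By symbol, 9 genes fell to eIF2 with its exchange factor and kinases (6 tested), 12 to eIF3 (12 tested), 11 to eIF4 (10 tested), 8 to other initiation factors (7 tested) and 11 to the elongation factors and their modifiers (9 tested).

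The samples were lamellar hoof tissue from the right foot of horses, 3 with laminitis (replicates 1, 3 and 4) and 3 normal (replicates 2, 3 and 4), each read on 1 bovine GeneChip. Lamellae are the interleaved epidermis and dermis that carry the coffin bone inside the hoof wall, and laminitis is the disease in which this suspension fails. How laminitis arose, and whether the 6 samples came from separate horses, was not stated in the labels used here, so errors and p-values measure no more than how these samples scatter, and that scatter may be technical. The basal keratin genes KRT5 and KRT14, which mark the epidermal part of this tissue, read between 186 and 331 and between 143 and 609, above the median of every array. Signals are on the deposited linear scale, on which array medians ran from 86.7 to 96.6. They are listed in the order of laminitis replicates 1, 3 and 4 and normal replicates 2, 3 and 4. Errors after ± are limma standard errors with 3 arrays per group.

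Translation starts when eIF2 brings the initiator tRNA to the small ribosomal subunit, which eIF3, eIF1, eIF1A and eIF5 prepare for scanning, while eIF4E, eIF4G and eIF4A recruit the capped mRNA. Elongation then depends on eEF1A, which delivers each aminoacyl-tRNA, on the eEF1B subunits that recharge it with GTP, and on eEF2, which moves the ribosome along. Much of the acute control lies in phosphorylation: stress kinases act on eIF2, mTORC1 on the eIF4E-binding proteins and EEF2K on eEF2. Arrays read transcript levels and not these protein states.

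On the deposited scale most factor transcripts read somewhat above their normal level in laminitis, and no single gene passed the test. In whole tissue, a change in the number of cells of a type and a change in RNA per cell cannot be told apart. The log2 difference, laminitis minus normal, was positive for 36 of 44 tested genes (81.8%), where 46.4% of all tested genes were positive, and its median was 0.29 against -0.029 over all tested genes. After quantile normalization 26 of the 44 were positive with a median of 0.083, and after cyclic loess normalization 28 with a median of 0.10, beside 47.3% and 49.0% of all genes. The single differences ran from -0.32 for EIF3B to 0.96 for EIF3D. With limma, and p-values adjusted by Benjamini-Hochberg across the 12519 probe sets in the fit, 0 of the 44 genes were called higher and 0 lower, where 0% of all genes were called in either direction, and the smallest adjusted p among the 44 was 0.265, for EIF3D. At an unadjusted p under 0.05 limma gave 7 of the 44 higher and 0 lower, beside 5.27% and 4.52% of all genes. An ordinary linear model and limma with an intensity trend and robust prior also called 0 of the 44. The groups did not overlap, with all laminitis arrays above the normal ones, for 12 of the 44, beside 8.7% of all genes, and with all laminitis arrays below for 1, EIF4B, beside 8.36% of all genes. After quantile normalization and after cyclic loess 3 of the 44 lay above in this way, beside 7.43% and 7.95% of all genes.

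**Figure D1:**
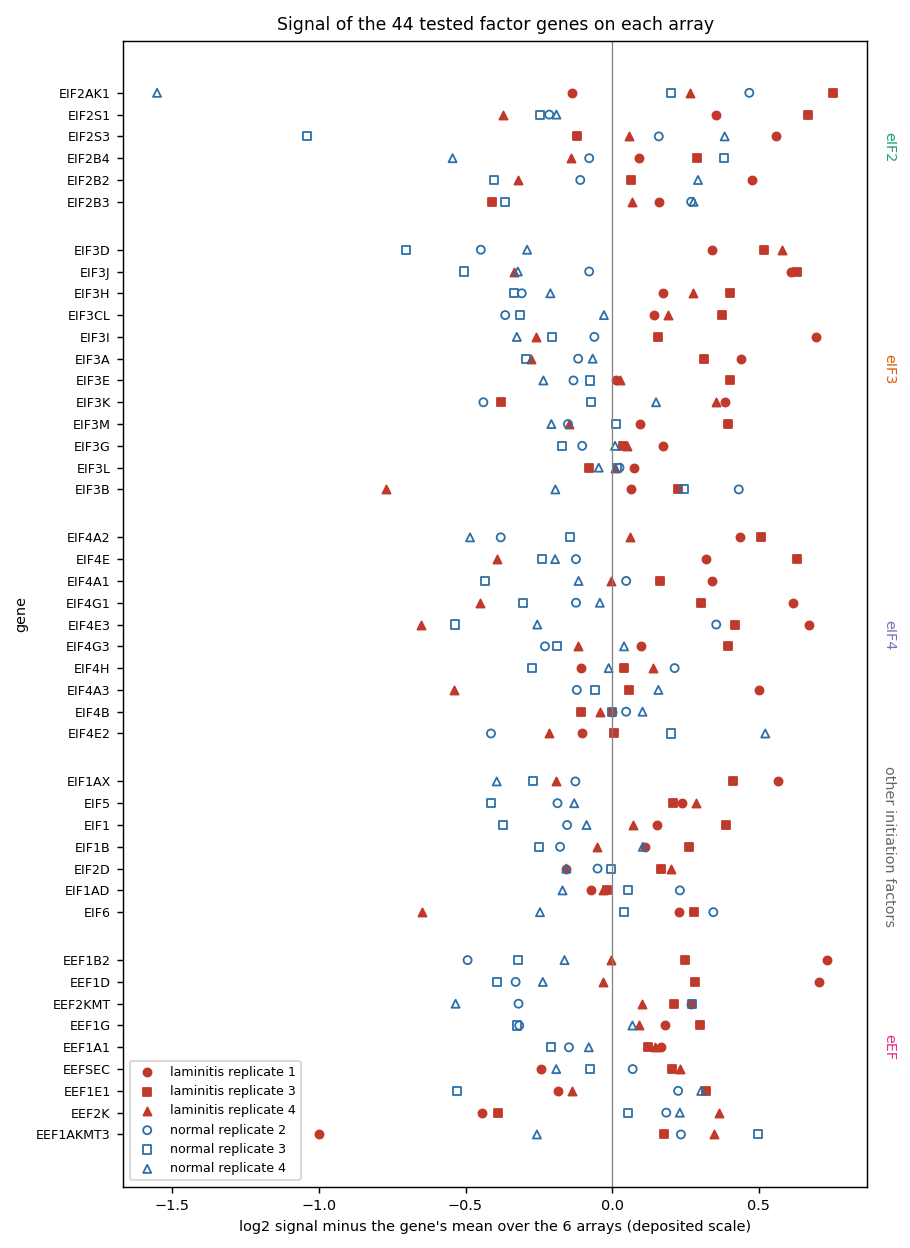
Log2 signal of each of the 44 tested genes on each array, less the gene's mean over the 6 arrays, on the deposited scale. Filled red symbols are the 3 laminitis arrays and open blue symbols the 3 normal arrays, with genes grouped by complex and ordered by log2 difference. For 12 genes, EIF3D and EEF1A1 among them, all red symbols lie to the right of all blue ones.

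The eIF3 genes, the largest set, held the largest single difference on the deposited scale. They also held the most genes whose groups stood apart there, 5 of 12, beside 4 of 9 tested EEF genes. eIF3 is the large scaffold that binds the small ribosomal subunit and joins it to the mRNA-bound eIF4 factors. Of its 12 tested genes 11 had a positive difference, and the median was 0.31. All laminitis arrays lay above the normal ones for 5 of the 12, beside 8.7% of all genes. The share was 30.1% of the brightest 10% of all genes, where those 5 lay, though not all 12 did. After quantile normalization 6 of the 12 were positive with a median of 0.038, and after cyclic loess 7 with a median of 0.11. In each case 1 of the 12, EIF3D, still had all laminitis arrays above, beside 7.43% and 7.95% of all genes. EIF3D, the subunit that can itself bind the cap of some mRNAs, read 2553, 2884 and 3013 in laminitis and 1476.5, 1236 and 1647 in normal tissue. The lowest laminitis array was thus well clear of the highest normal array. EIF3D lay 1.95-fold higher, a log2 difference of 0.96 ± 0.20 (limma SE, 3 arrays per group, adjusted p 0.265), and its groups stayed apart after quantile normalization (0.66) and cyclic loess (0.70).

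EIF3H read 4993, 5851 and 5368 in laminitis and 3577, 3514 and 3827 in normal tissue. All 3 normal values lay close together and below all laminitis values, and the log2 difference was 0.57 ± 0.18 (limma adjusted p 0.441). It shrank to 0.12 after quantile normalization and 0.19 after cyclic loess. EIF3CL, annotated as a copy of the core subunit gene EIF3C, read 996, 1169 and 1029.8 in laminitis and 701, 726 and 885 in normal tissue, with a log2 difference of 0.47 ± 0.20 (limma adjusted p 0.508). The probes of such copies cannot be told apart here.

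EIF3E, a subunit that shares its fold with proteasome lid proteins, read 2558, 3344 and 2582 in laminitis and 2312, 2405 and 2153.5 in normal tissue. EIF3G, an RNA-binding subunit that helps scanning, read 1197, 1089 and 1099 in laminitis and 989, 943 and 1068 in normal tissue. The groups of each gene stood apart, but narrowly, with log2 differences of 0.29 ± 0.20 and 0.17 ± 0.18 and limma adjusted p of 0.658 and 0.774. Both differences turned slightly negative after quantile normalization (-0.052 and -0.054) and after cyclic loess (-0.0018 and -0.0023). EIF3B, the RNA-binding core subunit, was the negative gene of the complex and read 90.2, 101 and 50.5 in laminitis and 116, 102 and 75.4 in normal tissue, or -0.32 ± 0.32 on the log2 scale (limma adjusted p 0.768). Its values straddled the array median and the groups overlapped, and a second EIF3B probe set gave 0.39 ± 0.81. The other 6 subunits lay between 0.0028 for EIF3L and 0.60 for EIF3J, the loosely bound subunit, and in each of them the groups overlapped.

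Among the eIF4 genes, which recruit capped mRNA, EIF4A2 stood out by size on the deposited scale. Of 10 tested genes 8 were positive with a median of 0.27, or 7 of 10 after quantile normalization (median 0.11) and 7 after cyclic loess (0.14). EIF4A2, a paralogue of the helicase EIF4A1 that unwinds the start of the mRNA, read 13443, 14155.5 and 10384 in laminitis and 7642, 9010.4 and 7108 in normal tissue. Its groups did not overlap, although laminitis replicate 4 lay nearer to the normal arrays than replicates 1 and 3 did, and the log2 difference was 0.67 ± 0.21 (limma adjusted p 0.445). It was 0.29 after quantile normalization and 0.18 after cyclic loess, with overlapping groups. EIF4A1 itself gave 0.33 ± 0.21 and EIF4A3, the paralogue of the exon junction complex, 0.014 ± 0.29.

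EIF4E, the cap-binding protein, read 1842, 2283 and 1124 in laminitis and 1354.5, 1249.6 and 1289 in normal tissue. Laminitis replicates 1 and 3 lay above every normal array and replicate 4 below every normal array, so the log2 difference of 0.37 ± 0.29 (limma adjusted p 0.701) rests on the first pair. It was 0.097 after quantile normalization and 0.15 after cyclic loess. EIF4G1, the scaffold that joins EIF4E to EIF4A, also had laminitis replicate 4 as its lowest array and the other laminitis arrays above all normal ones, with 643, 518 and 306 in laminitis and 385, 339 and 407 in normal tissue and a log2 difference of 0.31 ± 0.30 (limma adjusted p 0.755). Without laminitis replicate 4 the differences were 0.66 for EIF4E and 0.62 for EIF4G1. Without laminitis replicate 3 EIF4E gave 0.15, and without laminitis replicate 1 EIF4G1 gave 0.083.

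EIF4B, which stimulates the helicase, was the gene whose laminitis arrays all lay below the normal arrays, at 350.3, 326 and 340.4 in laminitis and 362, 350.4 and 377 in normal tissue. The nearest arrays, laminitis replicate 1 and normal replicate 3, were almost equal, the groups overlapped once each array was centred on its median, and the log2 difference was -0.10 ± 0.17 (limma adjusted p 0.869). EIF4E2, a cap-binding homologue linked to repression, had the smallest p among negative eIF4 genes and read 132, 143 and 122 in laminitis and 107, 163 and 204 in normal tissue, a difference of -0.21 ± 0.27 (limma adjusted p 0.827) with overlapping groups. EIF4EBP1, the mTORC1-controlled repressor of EIF4E, was too dim to test, since it exceeded the array median on 1 array, and read 24.2, 65.3 and 133 in laminitis and 23.8, 26.7 and 22.4 in normal tissue. The remaining 3 tested genes, EIF4G3, EIF4E3 and EIF4H, lay between 0.048 and 0.29.

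The groups overlapped for all 6 tested eIF2 genes, where 8.7% of all genes had all laminitis arrays above and 8.36% had them below. With so few genes this does not set them apart from genes at large. Of the 6 tested genes 5 were positive, beside 46.4% of all genes. Their median was 0.25, and it was 0.26 after quantile normalization and 0.27 after cyclic loess, with 5 of 6 positive in each. EIF2S1, the subunit that stress kinases phosphorylate, read 441, 548 and 266.5 in laminitis and 297, 291 and 302.5 in normal tissue. Laminitis replicates 1 and 3 lay above all normal arrays and replicate 4 below them, and the log2 difference was 0.43 ± 0.29 (limma adjusted p 0.654). EIF2S3, the GTP-binding subunit, gave 0.33 ± 0.40, while its second probe set gave -0.071 ± 0.24. Of the exchange factor subunits, EIF2B4 and EIF2B2 gave 0.16 ± 0.28 and 0.15 ± 0.29.

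EIF2B3, another exchange factor subunit and the negative gene of this set, read 139, 93.3 and 130.2 in laminitis and 149.6, 96.4 and 150.4 in normal tissue, a difference of -0.12 ± 0.27 (limma adjusted p 0.899). EIF2AK1, the haem-regulated kinase, was the kinase bright enough to test and gave 0.59 ± 0.54 (limma adjusted p 0.748), with normal replicate 4 at 30.1 and the other 5 arrays between 80.3 and 149. EIF2AK3, the kinase of the unfolded protein response, stayed below the median of every array, between 5.55 and 14.5. EIF2AK2, the kinase that senses double-stranded RNA, also stayed below it, between 10.8 and 74.5, as did EIF2B1. A bovine probe can read low where the horse sequence differs, so a dim probe set does not show a low transcript level.

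Among the other initiation factors EIF5 and EIF1 kept the groups apart on the deposited scale, with all laminitis arrays above. These were 2 of 7 tested genes, beside 8.7% of all genes and 30.1% of the brightest 10%, where both lay, though not all 7 did. No gene of the set stood apart after quantile normalization or cyclic loess, where 7.43% and 7.95% of all genes lay above and 8.11% and 7.43% below. With so few genes this does not set them apart from genes at large. Of 7 tested genes 5 were positive, with a median of 0.21 that became -0.0054 after quantile normalization (3 positive) and 0.020 after cyclic loess (5 positive). EIF5, which triggers GTP hydrolysis by eIF2 at the start codon, read 6468, 6327 and 6686 in laminitis and 4820.4, 4117 and 5015 in normal tissue. Its laminitis values lay within a narrow band, and the log2 difference was 0.49 ± 0.18 (limma adjusted p 0.491), or 0.14 and 0.08 under the quantile and loess scalings. Its dimmer probe set gave -0.12 ± 0.30.

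EIF1, which guards start codon choice, read 7186, 8457 and 6780.0 in laminitis and 5806, 4985 and 6078 in normal tissue. The log2 difference was 0.41 ± 0.20 (limma adjusted p 0.559), with -0.24 ± 0.22 by a dimmer probe set, and it turned to -0.0054 after quantile normalization and -0.02 after cyclic loess. EIF1AD, a protein related to eIF1A, had the smallest p among the negative genes of this set and read 156, 162 and 160.4 in laminitis and 192, 170.0 and 146 in normal tissue, a difference of -0.078 ± 0.19 (limma adjusted p 0.913). The other 4 ranged from -0.093 for EIF6, which keeps free large ribosomal subunits apart, to 0.53 for EIF1AX, which acts in scanning. EIF2A was too dim to test.

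The elongation factors were led by the eEF1 complex, of which every tested core subunit kept the groups apart on the deposited scale. These were 4 of the 9 tested EEF genes, beside 8.7% of all genes. The share was 30.1% of the brightest 10% of all genes, where those 4 lay, though not all 9 did. After quantile normalization and after cyclic loess 2 of the 9 stood apart, beside 7.43% and 7.95% of all genes. Over the 9 tested EEF genes the median was 0.29 with 7 positive, against 0.019 with 5 positive after quantile normalization and -0.040 with 4 positive after cyclic loess. EEF1D, a subunit of the exchange factor that recharges eEF1A, read 1786, 1330.4 and 1070.2 in laminitis and 871, 834 and 929 in normal tissue. EEF1B2, the other nucleotide exchange subunit, read 2289, 1636 and 1375 in laminitis and 979, 1103 and 1231 in normal tissue. In both genes replicate 1 was the highest laminitis array and replicate 4 the lowest, and in both the groups also stayed apart after quantile normalization and cyclic loess. The log2 differences were 0.64 ± 0.24 and 0.65 ± 0.25 (limma adjusted p 0.49 and 0.491), which became 0.42 and 0.39 under quantile normalization and 0.46 and 0.44 under cyclic loess.

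EEF1G, the structural subunit of the same complex, read 7244, 7875 and 6819 in laminitis and 5135, 5107 and 6710.4 in normal tissue, a difference of 0.38 ± 0.20 (limma adjusted p 0.593). Normal replicate 4 came close to the laminitis values, and the sign turned under quantile normalization (-0.027) and cyclic loess (-0.047). EEF1A1, the GTPase that delivers aminoacyl-tRNA, read 22513.5, 21877 and 22228 in laminitis and 18128, 17364 and 18999 in normal tissue. Its spread within each group was small, yet the log2 difference of 0.29 ± 0.17 (limma adjusted p 0.621) became 0.019 after quantile normalization and -0.30 after cyclic loess. EEF1A1 has near-identical copies in mammalian genomes, so its reading may include them.

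EEF2K, the kinase that slows elongation by phosphorylating eEF2, had the smallest p among the negative EEF genes and read 149, 155 and 261 in laminitis and 231, 211 and 238 in normal tissue. Laminitis replicates 1 and 3 lay below the normal arrays and replicate 4 above them, for a difference of -0.31 ± 0.26 (limma adjusted p 0.727), beside -0.55 ± 0.39 by a dimmer probe set. EEF2 itself exceeded the array median on 2 arrays and was not tested, with 134, 73.9 and 87.7 in laminitis and 158, 80.5 and 87.7 in normal tissue. EEF2KMT and EEF1AKMT3, methyltransferases that act on the elongation factors, gave 0.39 ± 0.25 and -0.32 ± 0.40. EEFSEC, the selenocysteine elongation factor, gave 0.13 ± 0.21, EEF1E1, a protein of the multisynthetase complex, 0.00092 ± 0.29, and EEF1A2 was too dim to test. EIF5A had no probe set with that symbol alone in the annotation and was not analysed here.

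Most factor genes had bright probe sets, and over all genes the difference was larger for bright probe sets. All tested genes were split by mean log2 signal into 4 equal classes, and 30 of the 44 factor genes lay in the brightest class, 21 of them among the brightest 10% of all genes. In the brightest class the median log2 difference was 0.32 over the 30 factor genes and 0.11 over all 1537 genes, with 29 of the 30 positive beside 62.0% of all genes. Among the brightest 10% it was 0.33 over the 21 and 0.26 over all 615 genes, and 20 of the 21 were positive beside 76.3% of all. All 12 factor genes that lay higher on every laminitis array were among this 10%. They made up 57.1% of the 21 factor genes there, where 30.1% of all genes did so. The second class did not follow this order for the factor genes, since its 4 had a median of 0.31 beside -0.056 over all genes, and they had 0.34 and 0.36 after quantile normalization and cyclic loess. In the next to dimmest class the 6 factor genes had a median of -0.038 beside -0.082 over all genes, and in the dimmest class the 4 factor genes had -0.22 beside -0.11.

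**Figure D2:**
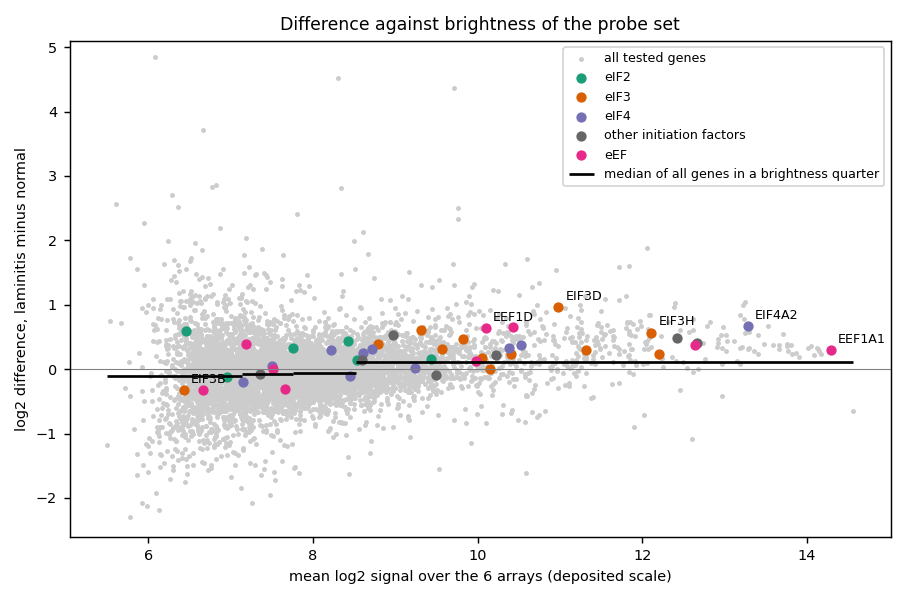
Log2 difference, laminitis minus normal, against mean log2 signal over the 6 arrays for the 6151 tested genes (grey) and the 44 factor genes (coloured by complex), on the deposited scale. Black lines are medians of all genes in each of the 4 brightness classes, from -0.11 in the dimmest to 0.11 in the brightest, and 30 of the 44 factor genes lie in the brightest.

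Quantile normalization and cyclic loess took away the trend over all genes, with a median over all genes of -0.024 and -0.018 in the brightest class. The 30 factor genes there then had medians of 0.11 and 0.13, with 19 and 20 positive. Over all 44, 25 genes were positive and 7 negative under all 3 scalings, while 12 changed sign in at least 1 of them. Groups stayed apart under all 3 scalings for 4 of the 44 genes, namely EIF3D, EEF1B2 and EEF1D above normal and EIF4B below. The share of all genes that stayed apart under all 3 was not counted, so this count has no background. Under the deposited, quantile and loess scalings taken singly, 17.05%, 15.54% and 15.38% of all genes stood apart in either direction. After quantile normalization and cyclic loess 1 of the 44, EIF4B, had all laminitis arrays below, beside 8.11% and 7.43% of all genes. Whether the brightness trend is technical was not tested.

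**Figure D3:**
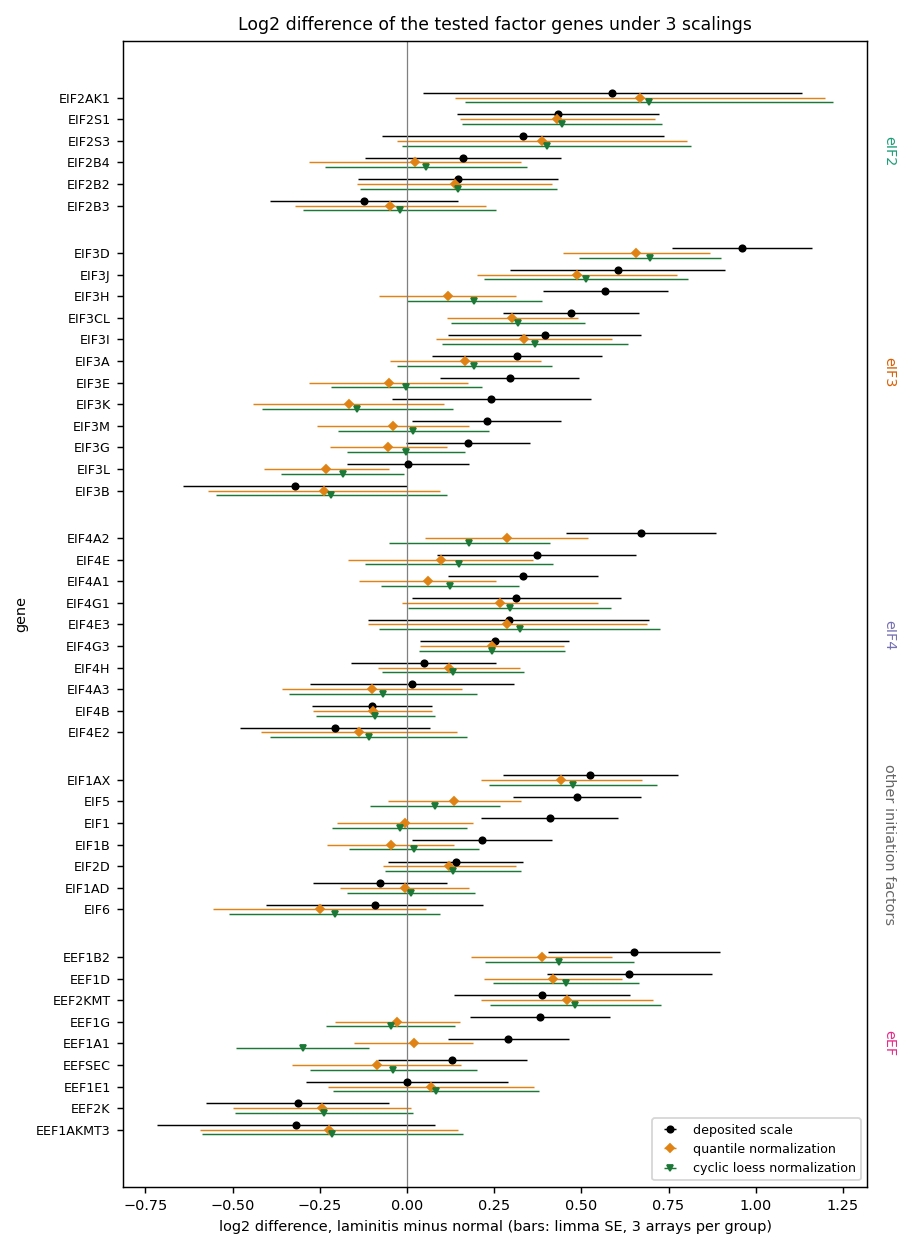
Log2 difference, laminitis minus normal, of each of the 44 tested genes on the deposited scale (black), after quantile normalization (orange) and after cyclic loess normalization (green). Bars are limma standard errors with 3 arrays per group; EIF3D moves from 0.96 to 0.66 and 0.70, and EEF1A1 from 0.29 to 0.019 and -0.30.

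The factor genes also differed among arrays of a group. Relative to each gene's mean over the 6 arrays, the median over the 44 lay at 0.17 on laminitis replicate 1, 0.25 on replicate 3 and -0.0034 on replicate 4. On normal replicates 2, 3 and 4 it lay at -0.12, -0.22 and -0.14. Laminitis replicate 4 therefore sat between the other laminitis arrays and the normal arrays, with 21 of the 44 genes above their mean, against 34 and 37 on replicates 1 and 3 and 11 to 15 on the normal arrays. Without replicate 4 the groups, now 2 arrays against 3 and so more easily separated, stood apart in either direction for 26 of the 44 (59.1%) beside 33.2% of all genes, and the median was 0.37. Leaving out laminitis replicate 1 or 3 gave 15 and 14 of the 44, beside 27.4% and 25.6% of all genes. Leaving out normal replicate 2, 3 or 4 gave 16, 16 and 17, beside 25.6%, 23.7% and 29.4%. The within-group SD on the log2 scale had a median over the 44 of 0.27 in laminitis and 0.17 in normal tissue, beside 0.31 and 0.25 over all tested genes.

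Markers of the cell types in the tissue also differed among these arrays, and none passed in limma. The summed signal of 7 fibroblast markers was 8312, 12067 and 29694 on laminitis replicates 1, 3 and 4 and 8512, 13886 and 30601 on normal replicates 2, 3 and 4, so it was highest on replicate 4 of each group. It was mostly collagen, and 4 of the 7 markers had a positive difference, with a median of 0.31. DCN, decorin, read 724, 787 and 1199 in laminitis and 2365, 1685 and 4898 in normal tissue, a difference of -1.61 ± 0.42 (limma adjusted p 0.345) with all laminitis arrays below. PDGFRA went the other way, with all laminitis arrays above. It read 284.6, 319.5 and 316.1 in laminitis and 279.2, 210 and 235.6 in normal tissue. Of all genes, 8.7% stood apart above and 8.36% below. The summed signal of 4 neutrophil markers was 12992, 9885 and 1495 in laminitis and between 503 and 983 in normal tissue. In laminitis this sum was mostly S100A8 and S100A9, which stressed keratinocytes also express. ELANE and MPO, also in the sum, lay lower on all laminitis arrays than on any normal array. The summed signal of 7 keratinocyte markers ran from 3030 to 4603 in laminitis and from 2905 to 4068 in normal tissue. Sums also stood apart for 5 monocyte and macrophage markers, at 665 to 791 in laminitis and 558 to 589 in normal tissue, and for 3 adipocyte markers, at 121 to 152 and 191.0 to 218. CYBB, an oxidase subunit of phagocytes, set the former, with 233, 265 and 256 in laminitis and 37.4, 40.8 and 107 in normal tissue (2.20 ± 0.41, limma adjusted p 0.222). CD68, CD14 and MSR1 overlapped between groups, and CSF1R, too dim to test, lay lower on all laminitis arrays. FABP4 set the adipocyte sum, with 101, 74.1 and 60.3 in laminitis and 120, 135 and 172 in normal tissue (-0.88 ± 0.26, limma adjusted p 0.406). ADIPOQ and LEP were too dim to test and overlapped between groups. As a measure of RNA quality, the ratio of 3' to 5' control signal ran from 4.71 to 6.62 in laminitis and 2.08 to 6.25 in normal tissue for actin, and from 4.06 to 9.70 and 5.51 to 6.87 for GAPDH. Laminitis replicate 1 had the highest ratio of all arrays for both, and also for the EIF4E control, at 12.98 against 3.21 to 5.63 elsewhere. On that array 15 of the 44 factor genes were highest, beside 20.55% of all genes. On laminitis replicate 3, which had the lowest ratio for GAPDH and for EIF4E, 14 of the 44 were highest, beside 17.2% of all genes. The part of these in the results was not tested.

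Control probe sets on the chip also read EEF1A1 and EIF4E, with other probes on the same arrays. The 5' EEF1A1 control read 6095, 10863.5 and 10867 in laminitis and 8284, 8111 and 8949 in normal tissue, a log2 difference of 0.086 with overlapping groups, while the middle and 3' controls and the other EEF1A1 probe set stayed below every array's median. The separation of the groups by the brightest EEF1A1 probe set was thus not shared by the other bright reading of the gene. For EIF4E, the 3' control read 2905, 2434 and 2013 in laminitis and 1931, 1743 and 2069.8 in normal tissue (log2 difference 0.34), the middle control 868, 1433 and 773 in laminitis and 688, 676 and 772.5 in normal tissue (0.47) and the 5' control 224, 759 and 359.9 in laminitis and 381, 345 and 368 in normal tissue (0.11). The 3 controls and the EIF4E probe set used above thus shared a positive sign, and laminitis replicate 3 was above all normal arrays in each. Of 9 factor genes with more than 1 tested probe set, 5 (EEFSEC, EIF1, EIF2S3, EIF3B and EIF5) had probe sets of opposite sign.

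**Figure D4:**
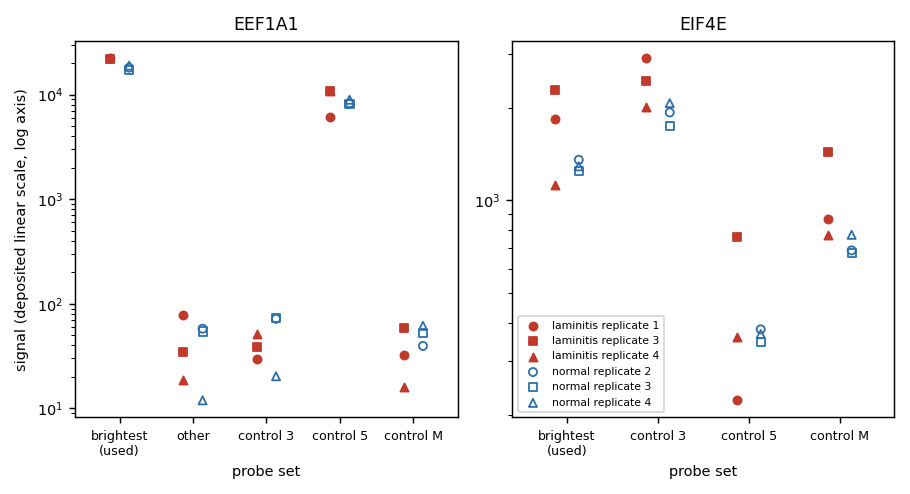
Signal on each array (deposited linear scale, log axis) of every probe set for EEF1A1 (left) and EIF4E (right): the brightest, any other, and the chip's 3', 5' and middle (M) controls. Filled red symbols are laminitis and open blue symbols normal arrays; the brightest EEF1A1 set separates the groups and its 5' control, at 6095 to 10867, does not.

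Genes that work beside these factors were read from 6 lists. Of 10 tested termination, recycling and poly(A)-binding factors 0 passed in limma in either direction, 3 were higher and 0 lower at an unadjusted p under 0.05, and 8 were positive, beside 5.27%, 4.52% and 46.4% of all genes, with a median of 0.32 (0.30 after quantile normalization and 0.33 after cyclic loess). PABPC1, the poly(A)-binding protein that contacts eIF4G, read 7009, 8218 and 7242 in laminitis and 3798, 3552 and 4114 in normal tissue, a difference of 0.97 ± 0.18 (limma adjusted p 0.222) that was 0.50 after quantile normalization and 0.57 after cyclic loess. GSPT1, the release factor GTPase, gave 0.95 ± 0.31 (limma adjusted p 0.445), and in both genes the laminitis arrays lay above all normal arrays.

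Of 9 tested genes of the mTORC1 and MNK arm, which controls eIF4, 0 passed and 2 were higher at an unadjusted p under 0.05, beside 5.27% of all genes. These were DDIT4, an inhibitor of mTORC1 (1.23 ± 0.28, limma adjusted p 0.295), and PDCD4, an inhibitor of the eIF4A helicase, which read 5047, 4823 and 5488 in laminitis and 3059, 3322 and 3261 in normal tissue (0.67 ± 0.18, limma adjusted p 0.35, with 0.24 after quantile normalization). The list's median was 0.19, with 7 of 9 positive, or 6 after cyclic loess. Of 7 tested targets of the integrated stress response, the program that eIF2 phosphorylation starts through ATF4, 0 passed, with 1 higher and 1 lower at an unadjusted p under 0.05, beside 5.27% and 4.52% of all genes, and a median of 0.0063. CHAC1, which degrades glutathione, gave 1.69 ± 0.41 (limma adjusted p 0.334). It entered the test only through its laminitis arrays, since its normal readings of 92.9, 46.7 and 29.8 lay below their arrays' medians. PPP1R15A, the phosphatase subunit that reverses eIF2 phosphorylation, gave -0.60 ± 0.21 (limma adjusted p 0.475) and ATF4 itself -0.32 ± 0.27.

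Of 13 tested aminoacyl-tRNA synthetases and their scaffold proteins 0 passed and 2 were higher at an unadjusted p under 0.05, beside 5.27% of all genes. These were RARS1 (0.80 ± 0.26) and EPRS1 (0.74 ± 0.29), with limma adjusted p of 0.45 and 0.494. Of the 13, 7 were positive, or 5 under either other scaling, and their median of 0.050 changed sign to -0.11 after quantile normalization and to -0.12 after cyclic loess. Of 5 tested enzymes that build diphthamide on eEF2 or hypusine on eIF5A 0 passed and 1 was higher at an unadjusted p under 0.05, beside 5.27% of all genes, with a median of 0.13. The gene counted was DHPS, the first hypusine enzyme, which read 127, 172 and 98 in laminitis and 40.8, 53.9 and 58.4 in normal tissue. Its difference was 1.35 ± 0.27 (limma adjusted p 0.252). Its normal values lay below the median of every array, so it entered the test only through its laminitis arrays. DNAJC24, which acts in diphthamide synthesis, gave 0.43 ± 0.43. TUFM, the mitochondrial elongation factor and the tested gene of its list, gave 0.25 ± 0.22 (limma adjusted p 0.733).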

How the data were processed

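Biotin-labelled cRNA of 6 equine lamellar samples was hybridised to bovine GeneChips, per the labels' protocols. The deposited table holds linear intensity values with a 2% trimmed mean of 150.0 on each array. The submitters' processing notes name GCRMA, but linear values with a shared trimmed mean are not features of its output, so how they were made is not settled, and they were used as they stand. No detection calls were used. The 112 control probe sets were left out of the fit. Log2 values of the deposited intensities, with no offset, entered limma 3.58.1 (lmFit, then eBayes; R 4.3.3) for the 12519 probe sets above their array's median on at least 3 of 6 arrays. Tests were two-sided, and a Benjamini-Hochberg adjusted p under 0.05 across these probe sets was a call. Folds are of geometric means. The procedure was tested on simulated data. The number of arrays limits precision.

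Symbols are bovine, from a platform annotation of 2016, and 50 of the 51 also occur as horse symbols in RefSeq (EIF3CL does not). No pair of arrays was identical. Named genes are those whose groups did not overlap (12 of smallest p), the gene of smallest p per direction in each complex, 9 fixed regulators and core factors, and 2 per list; further genes, EIF4B among them, were named after their values were seen. The factor genes and lists were chosen with earlier results of these data known, so no set test is given. Alternatives were 3 other filters, quantile, median and cyclic loess scaling, 64 added before log2, 3 variance models, the replicate block, probe set means and leaving out each array.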

Additional observations from a re-analysis of the deposited data

How the results depend on the processing

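In all 18 other settings run, 0 of the factor genes were called in either direction, with a smallest adjusted p among them from 0.108 (probe sets above the median on all 6 arrays) to 0.677 (without normal replicate 3). Over all genes, at most 6 were called. The number of genes with separate groups in either direction was 13 (29.55%) on the deposited scale, beside 17.05% of all genes. It was 4 (9.09%) after quantile normalization and 4 (9.09%) after cyclic loess, below the 15.54% and 15.38% of all genes. With 1 array left out it ran from 14 (31.8%) to 26 (59.1%). Of all genes, 25.6% stood apart where laminitis replicate 3 was dropped (the 14) and 33.2% where replicate 4 was (the 26). The median log2 difference over all factor genes was 0.083 after quantile normalization and 0.10 after cyclic loess, and 0.18 (without laminitis replicate 3) to 0.37 (without laminitis replicate 4) with 1 array left out; that of eIF3 was 0.038, 0.11 and 0.21 to 0.43. The eEF median of 0.29 was 0.13 with no filter on dim probe sets, 0.21 with the lower quartile as filter, 0.37 after centring each array on its median, 0.019 after quantile normalization, -0.040 after cyclic loess and 0.22 to 0.30 with 1 array left out. The eIF2 and eIF4 medians ran from 0.15 to 0.36 and from 0.098 to 0.39 with 1 array left out.

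Among the genes named by rule, the sign changed as follows. After quantile normalization it did so for EEF1G (-0.027), EIF1 (-0.0054), EIF3E (-0.052) and EIF3G (-0.054). After cyclic loess it did so for EEF1A1 (-0.30), EEF1G (-0.047), EIF1 (-0.020), EIF1AD (0.012), EIF3E (-0.0018) and EIF3G (-0.0023). EIF1AD was 0.0051 after median centring and 0.034 with the replicate block. With 1 array left out EIF1AD ran from -0.18 to 0.018 (without normal replicate 2), EIF2B3 from -0.33 to 0.053 (without laminitis replicate 3) and EIF4E2 from -0.46 to 0.0039 (without normal replicate 4), while EIF3B was 0.036 as a mean over its probe sets. The cause of these changes was not tested. With the replicate number as a block, 34 of 44 genes were positive with a median of 0.25 and 0 calls; arrays sharing number 3 or 4 had deviations correlated at -0.017 and -0.031, and the labels do not say that a number marks a pair, so no pairing was assumed. Signals near or below the array median limit EIF2AK1, EIF2B3, EIF3B and EEF1AKMT3, and the genes not tested.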

Other observations

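A pair of probe sets carries the symbols EIF4EBP3 and ANKHD1 together, since a readthrough transcript joins these neighbouring genes, and so could not be given to either. EIF4EBP3 is a relative of the eIF4E-binding repressor EIF4EBP1. The probe sets read 140.0, 143.8 and 90.1 and 65.5, 230.6 and 145.6 on laminitis replicates 1, 3 and 4. On normal replicates 2, 3 and 4 they read 139.1, 104.1 and 85.6 and 139.8, 41.6 and 142.6. The log2 differences were 0.18 ± 0.28 and 0.47 ± 0.62 (limma SE), with limma adjusted p of 0.853 and 0.827, and the groups overlapped in both.

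Among the genes beside the factors that were too dim to test, TARS1, threonyl-tRNA synthetase, read 228, 877 and 46.7 in laminitis and 49.6, 31.3 and 58.8 in normal tissue, with overlapping groups. PELO, which rescues stalled ribosomes, read 30, 27.5 and 37.7 in laminitis and 11.6, 21.6 and 13 in normal tissue, below the median of every array, and its laminitis values all lay above its normal values. DDIT3, a target of the integrated stress response, also had all laminitis values above, at 16.33, 13.53 and 16.41 against 13.06, 9.15 and 10.59. MTRF1L, a mitochondrial translation factor, lay the other way, at 29.63, 13.93 and 12.97 in laminitis and 59.7, 35.46 and 57.93 in normal tissue. The log2 difference was -1.51 for MTRF1L and 1.09 for PELO. With no filter on dim probe sets, 15.55% of all genes stood apart in either direction. The genes in this paragraph were named after their values were seen.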
